A study of Mus musculus with 9 samples.

Results

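The set described here joined 2 related groups of mouse genes: those that carry out and control glycolysis, and those that are classical targets of the hypoxia-inducible factor (HIF). It held 38 genes, chosen by name: 16 glycolytic enzymes, 5 genes of glucose and lactate transport or glycolytic control, and 17 genes that comprise Hif1a and other HIF targets. Their Ensembl IDs were looked up in the count tables, where all 38 were found among 55416 genes, of which 28539 had a count in at least 1 library. All 38 passed the filter on low counts in each comparison.

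RNA was sequenced from 4T1 cells, which derive from a mammary tumour of a BALB/c mouse. The MRC+L group was kept with MRC nanoparticles for 12 h and irradiated at 660 nm for 3 min. The MRC group was kept with the same particles for 12 h without light, and the PBS group was kept for 12 h in DMEM medium alone, each with 3 libraries as the MRC+L group had. The labels do not spell out MRC, give the irradiance as 180 with units that differ between fields, and do not say when within the 12 h the light was given. Light without particles was not analysed here, so the light step (MRC+L against MRC) compares cells given particles with and without light, and the particle step (MRC against PBS) compares cells with and without particles, both in the absence of light.

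Glycolysis splits glucose into pyruvate in the cytosol, and lactate dehydrogenase turns pyruvate into lactate when it does not enter mitochondria. HIF is a pair of an oxygen-regulated alpha subunit and a stable partner. In oxygenated cells prolyl hydroxylases of the EGLN family mark the alpha subunit for destruction, and when they slow down HIF accumulates, binds short DNA elements and raises transcription of genes for glucose uptake, glycolysis, vessel growth, removal of mitochondria and matrix hydroxylation. Control of HIF-1alpha is largely at the protein, which these data did not measure. Tumour lines such as 4T1 run glycolysis strongly in the presence of oxygen.

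Library totals lay between 15019765 and 20044166 counts, and a count of 0 left room for up to 0.150 to 0.200 CPM by library (3 counts; counting error only). Levels below are CPM, read counts scaled to a common library size with TMM factors. Fold changes are log2 values ± a standard error derived from the statistic of the test described next. A gene was called where the quasi-likelihood test of edgeR, adjusted by Benjamini-Hochberg over all genes tested, gave a value under 0.05. Statements that groups do or do not overlap describe the same values as the calls and add no support to them. The share of all genes without overlap is not given here. The labels do not say that replicates were separate cultures, so p-values here measure only how far these libraries differ from each other, possibly for technical reasons. The biological coefficient of variation was 0.0580 within MRC+L, 0.0807 within MRC and 0.280 within PBS. In PBS replicate 2 short genes were high, by 0.92 log2 units over long genes when set against the mean of all libraries, and in the other libraries this contrast was -0.25 to 0.084. Among markers of the cell type, the epithelial keratins Krt8, Krt18 and Krt7 were abundant while Epcam had 0 to 5 counts, and the leukocyte genes Adgre1 and Cd3e had none. The summed level of 9 epithelial markers was 562 to 573 CPM in MRC+L, 635 to 668 CPM in MRC and 1057 to 1878 CPM in PBS, with 6, 5 and 4 of the 9 at 1 CPM or more on average. That of 8 leukocyte markers, nearly all Cd68, was 18.6 to 20.1 CPM in MRC+L, 17.0 to 22.8 CPM in MRC and 7.16 to 12.1 CPM in PBS, that of 6 fibroblast markers 73.8 to 83.8, 75.5 to 93.3 and 43.2 to 78.4 CPM, and that of 5 endothelial markers at most 7.47 CPM. The part of these markers in the results below was not tested.

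HIF binds DNA at elements with the core ACGTG or GCGTG. The stretches below are the 250 bases upstream of the annotated start of the 6 genes that were called in both the particle step and the light step and have an entry in RefSeq (GRCm38.p6, printed 5′ to 3′ on the gene's strand). They are shown because these genes were called in both steps, which share the MRC libraries. Slc2a1, Vegfa and P4ha2 rose in both steps, and Pdk1, Bnip3 and Egln3 fell in the particle step and rose in the light step. Capitals mark each match to either core on either strand.
Slc2a1 (chr4:119108495-119108744, plus strand): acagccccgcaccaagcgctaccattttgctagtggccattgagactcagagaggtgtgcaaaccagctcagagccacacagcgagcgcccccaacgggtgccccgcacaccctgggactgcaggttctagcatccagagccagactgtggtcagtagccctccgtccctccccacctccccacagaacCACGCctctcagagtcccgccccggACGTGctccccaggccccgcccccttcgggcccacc
Pdk1 (chr2:71872974-71873223, plus strand): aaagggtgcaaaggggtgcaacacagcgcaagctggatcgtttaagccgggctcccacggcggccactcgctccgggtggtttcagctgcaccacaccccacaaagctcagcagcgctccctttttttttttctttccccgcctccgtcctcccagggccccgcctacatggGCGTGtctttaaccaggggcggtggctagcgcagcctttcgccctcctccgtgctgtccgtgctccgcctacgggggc
Vegfa (chr17:46032378-46032627, minus strand): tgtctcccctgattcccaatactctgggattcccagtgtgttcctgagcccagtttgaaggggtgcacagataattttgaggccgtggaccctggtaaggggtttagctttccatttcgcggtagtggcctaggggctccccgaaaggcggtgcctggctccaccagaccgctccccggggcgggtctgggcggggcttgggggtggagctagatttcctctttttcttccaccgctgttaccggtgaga
Bnip3 (chr7:138909507-138909756, minus strand): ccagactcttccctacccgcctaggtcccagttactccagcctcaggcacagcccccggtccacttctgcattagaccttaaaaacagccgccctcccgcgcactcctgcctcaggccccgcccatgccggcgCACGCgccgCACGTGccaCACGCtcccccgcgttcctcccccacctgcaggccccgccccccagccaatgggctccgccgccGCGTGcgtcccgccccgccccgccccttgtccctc
Egln3 (chr12:54203875-54204124, minus strand): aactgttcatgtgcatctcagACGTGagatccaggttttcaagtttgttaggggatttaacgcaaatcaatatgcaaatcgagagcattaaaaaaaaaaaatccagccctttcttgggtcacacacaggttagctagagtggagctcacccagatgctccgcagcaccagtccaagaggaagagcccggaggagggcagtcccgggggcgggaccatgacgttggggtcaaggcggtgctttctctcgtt
P4ha2 (chr11:54100674-54100923, plus strand): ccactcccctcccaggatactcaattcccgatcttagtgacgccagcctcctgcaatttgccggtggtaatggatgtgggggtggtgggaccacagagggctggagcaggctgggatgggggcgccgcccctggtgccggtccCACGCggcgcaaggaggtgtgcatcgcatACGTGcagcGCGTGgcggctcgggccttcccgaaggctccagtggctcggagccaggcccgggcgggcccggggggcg

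In windows of 300 bases that add 50 bases after the start, 27 of the 35 members with an entry (77.1%) held at least 1 core, against 43.8% of all 27025 gene windows. ACGTG was in 57.1% of the member windows and 19.6% of all windows, and GCGTG in 54.3% and 32.5%. Many members were named because they are known HIF targets, so these differences may follow from the choice of genes. The windows of all genes were not matched to the members in expression or base composition. Ndrg1, Plod2 and Bnip3l had no entry. Each strand was searched, and ACGTG overlaps the E-box CACGTG, which was counted on both strands: the 2 ACGTG matches of Bnip3 are 1 E-box. Further matches lie across the start of Pdk1 and 11 bases after the start of P4ha2. A match to letters is a description and not a measured binding site, and the Vegfa window holding none says nothing of elements elsewhere. Among members called higher in the light step 9 of 11 windows held a core, and among members not called 18 of 24.

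The particle step asks what the nanoparticles did without light. Of 16 enzymes 10 fell and none rose in MRC cells relative to PBS cells, and of 5 transport and control genes Slc2a1 and Pfkfb3 rose and Pdk1 fell. Of the 17 HIF genes 3 rose (Vegfa, P4ha2 and Ndrg1) and 7 fell (Bnip3, Bnip3l, Egln1, Egln3, Car9, Ankrd37 and Mxi1). Across all 13439 genes 17.8% were called higher and 19.8% lower. For each gene this fit pooled the spread of all 9 libraries, although PBS varied far more than the exposed groups. With the PBS and MRC libraries alone, Eno1, Pkm and Pdk1 were not called (adjusted p = 0.0977, 0.138 and 0.0582). Nor were Bnip3l, Ankrd37 and Mxi1 (adjusted p = 0.113, 0.0901 and 0.0915). The share of all genes called in that smaller fit is not given here. The median log2 fold change was -0.47 over the enzymes and -0.04 over the 17 HIF genes, against -0.03 over all genes. In bulk RNA, less transcript per cell and fewer cells that make it cannot be told apart.

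**Figure D1:**
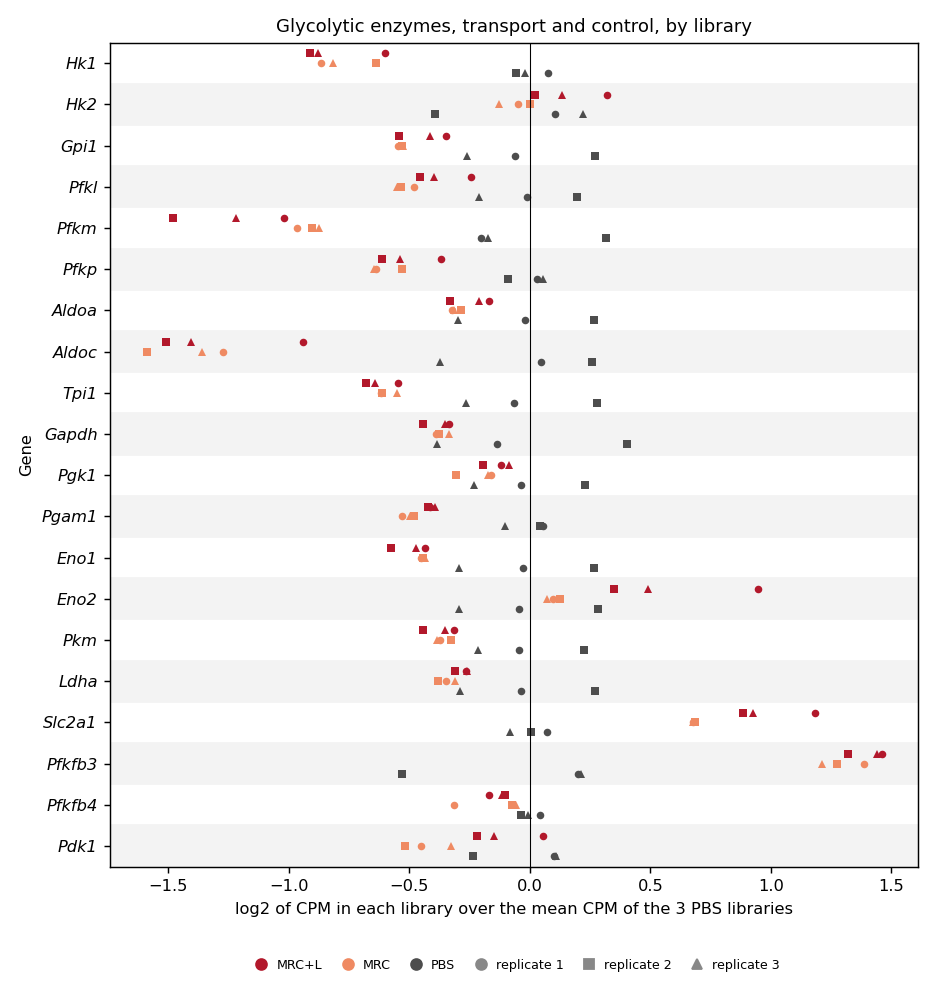
Level of each glycolytic gene in each of 9 libraries, as log2 of CPM over the mean CPM of the 3 PBS libraries (x axis), with colours for groups and shapes for replicate numbers. The MRC+L and MRC points of Hk1, Pfkm and Aldoc lie left of their PBS points, and those of Slc2a1 and Pfkfb3 lie right of them. Slc16a3, with 0 to 17 counts per library, is left out.

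The enzymes that trap and rearrange glucose came first, and Hk1 and Gpi1 fell. Hk1, the hexokinase that phosphorylates glucose on entry in most tissues, had 120.4, 141 and 125 CPM in MRC and 231, 211 and 216 CPM in PBS. No MRC library reached the lowest PBS library, and Hk1 fell (log2 fold change -0.77 ± 0.12, adjusted p = 0.000659). Hk2, the inducible hexokinase, had 155, 161 and 147 CPM in MRC and 172, 122 and 187 CPM in PBS, with overlapping groups and no call (log2 fold change -0.06 ± 0.15, adjusted p = 0.796). Without PBS replicate 2, the lowest PBS library for this gene, Hk2 was called lower (-0.23, adjusted p = 0.0445). Gpi1, which converts glucose 6-phosphate to fructose 6-phosphate, had 557, 563 and 565 CPM in MRC and 779, 983 and 679 CPM in PBS and fell (log2 fold change -0.54 ± 0.14, adjusted p = 0.0123).

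All 3 genes of phosphofructokinase, the committing enzyme of glycolysis, fell. Pfkm, the muscle-type subunit, changed most, with 24.4, 25.5 and 26.0 CPM in MRC and 41.4, 59.4 and 42.2 CPM in PBS (log2 fold change -0.91 ± 0.17, adjusted p = 0.0019). Pfkl, the liver-type subunit, had 320.3, 309 and 305 CPM in MRC and 443, 512 and 387 CPM in PBS (log2 fold change -0.52 ± 0.12, adjusted p = 0.00734). Pfkp, the platelet-type subunit, had 250.3, 269.8 and 249 CPM in MRC and 399, 366 and 405 CPM in PBS (log2 fold change -0.61 ± 0.10, adjusted p = 0.00142). In each case the 3 MRC libraries lay below the 3 PBS libraries. Aldoc, a minor aldolase here, had 8.11, 6.52 and 7.64 CPM in MRC and 20.2, 23.5 and 15.1 CPM in PBS and showed the largest fall among the enzymes (log2 fold change -1.40 ± 0.21, adjusted p = 0.000569). Aldoa, the main aldolase, had 1594, 1637 and 1606 CPM in MRC and 1966, 2398 and 1622 CPM in PBS, and its groups overlapped in PBS replicate 3 (log2 fold change -0.31 ± 0.14, adjusted p = 0.113).

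Tpi1, which interconverts the triose phosphates, had 528, 529 and 552 CPM in MRC and 774, 981 and 674 CPM in PBS and fell (log2 fold change -0.59 ± 0.14, adjusted p = 0.00704). Pgam1, phosphoglycerate mutase, had 198, 205 and 203 CPM in MRC and 297, 294 and 266 CPM in PBS and fell (log2 fold change -0.50 ± 0.091, adjusted p = 0.0019). These 2 genes and Hk1, Gpi1, Pfkl, Pfkm, Pfkp and Aldoc stayed called with any 1 of the 9 libraries left out. Eno1, the main enolase, had 1719, 1730.2 and 1739 CPM in MRC and 2306, 2825 and 1918 CPM in PBS (log2 fold change -0.44 ± 0.14, adjusted p = 0.0315). Pkm, pyruvate kinase, had 2733, 2819.6 and 2709.8 CPM in MRC and 3428, 4131 and 3044 CPM in PBS (log2 fold change -0.36 ± 0.13, adjusted p = 0.0483). Both were called lower, but the call of Pkm was lost with no filter on low counts (adjusted p = 0.0962), and both calls were lost without PBS replicate 1 or without any 1 of the 6 exposed libraries (highest adjusted p 0.0959 for Eno1 and 0.131 for Pkm), and without PBS replicate 2 their log2 fold changes were -0.29 and -0.24.

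Gapdh, Pgk1 and Ldha, the enzymes that yield NADH, ATP and lactate, were not called. Gapdh had 1577, 1591 and 1635 CPM in MRC and 1882, 2732 and 1582 CPM in PBS, Pgk1 had 1189, 1077 and 1181 CPM in MRC and 1298, 1560.4 and 1135 CPM in PBS and Ldha had 1668, 1629.9 and 1711 CPM in MRC and 2071, 2558 and 1737 CPM in PBS. Their log2 fold changes were -0.37 ± 0.18, -0.21 ± 0.13 and -0.35 ± 0.14, with adjusted p of 0.127, 0.221 and 0.0742. PBS replicate 3 was the lowest PBS library for all 3 and for Aldoa, and without it the 4 genes were called lower (adjusted p = 0.0141, 0.0474, 0.00775 and 0.0123). Ldha was also called lower by DESeq2 (adjusted p = 0.0402) and with the length trend removed (adjusted p = 0.0408), and voom called Ldha, Gapdh, Pgk1, Aldoa and Hk2 lower (adjusted p of 0.000252 to 0.0385). Eno2, the neuron-type enolase, stood on the other side of 0 without a call, with 53.7, 54.8 and 52.8 CPM in MRC and 48.6, 61.0 and 41.0 CPM in PBS (log2 fold change 0.10 ± 0.18, adjusted p = 0.69). PBS replicate 2 held the highest PBS level for 12 of the 16 enzymes, and for 44.4% of all genes. Without it 11 enzymes were called lower and none higher, where 26% of all genes were called lower and 24.7% higher. Genes with near-identical copies are uncertain, since reads with several places were not counted: Eno1b, a close copy of Eno1, had 3411 to 11133 counts per library, annotated copies of Pgk1, Ldha, Pgam1 and Aldoa had 0 to 63, and a second ID that carries the Aldoa symbol had 36 to 130. Low counts of a copy do not show how many reads of the enzyme gene were left out. Copies under unrelated names were not looked up for any enzyme, Gapdh included.

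Genes that feed or steer glycolysis moved in both directions. Slc2a1, which encodes the glucose transporter GLUT1 (ENSMUSG00000028645, GRCm39 chr4:118965908-118995180), had 277, 279 and 277 CPM in MRC and 182, 174 and 164 CPM in PBS. Every MRC library exceeded every PBS library, and Slc2a1 rose 1.60-fold (log2 fold change 0.68 ± 0.11, adjusted p = 0.000881). Pfkfb3, whose product makes the fructose bisphosphate that activates phosphofructokinase, had 44.6, 41.3 and 39.6 CPM in MRC and 19.6, 11.8 and 19.8 CPM in PBS and rose 2.45-fold (log2 fold change 1.29 ± 0.18, adjusted p = 0.000394). Pfkfb4, a relative of Pfkfb3, had 11.3, 13.4 and 13.5 CPM in MRC and 14.5, 13.8 and 14.0 CPM in PBS (log2 fold change -0.14 ± 0.12, adjusted p = 0.38). Pdk1, the kinase that shuts pyruvate out of mitochondrial oxidation, fell, with 103, 98.0 and 112 CPM in MRC and 151, 119 and 151 CPM in PBS (log2 fold change -0.43 ± 0.13, adjusted p = 0.0225), though it was not called with PBS replicate 1, MRC replicate 1 or MRC replicate 2 left out (highest adjusted p 0.0822). Slc16a3, the lactate exporter MCT4, was near silence, with 3, 5 and 15 counts in MRC and 3, 3 and 10 counts in PBS, and could not be told apart between groups at this depth.

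Of Hif1a and the HIF targets outside glycolysis, 3 of 17 genes were higher and 7 lower in the particle step, against 17.8% and 19.8% of all genes. The number higher was near the share of all genes, and the number lower depended on single libraries, as given below. Ndrg1, a stress-responsive gene and a common marker of hypoxia (ENSMUSG00000005125, GRCm39 chr15:66801167-66841489), had 2141, 2009 and 2069 CPM in MRC and 732, 805 and 707 CPM in PBS. It rose 2.77-fold (log2 fold change 1.47 ± 0.11, adjusted p = 9.64e-06), and the groups lay far apart. Vegfa, the growth factor of blood vessels, had 173, 148 and 147 CPM in MRC and 81.8, 83.9 and 81.8 CPM in PBS and rose 1.89-fold (log2 fold change 0.92 ± 0.10, adjusted p = 0.000103). P4ha2, a catalytic subunit of the collagen prolyl hydroxylase, had 33.4, 28.9 and 30.7 CPM in MRC and 19.1, 24.3 and 19.7 CPM in PBS and rose 1.47-fold (log2 fold change 0.56 ± 0.16, adjusted p = 0.019). The calls of Ndrg1 and Vegfa held with any 1 library left out, and that of P4ha2 needed each of PBS replicate 1, MRC replicate 1 and MRC replicate 3 (highest adjusted p 0.0741).

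**Figure D2:**
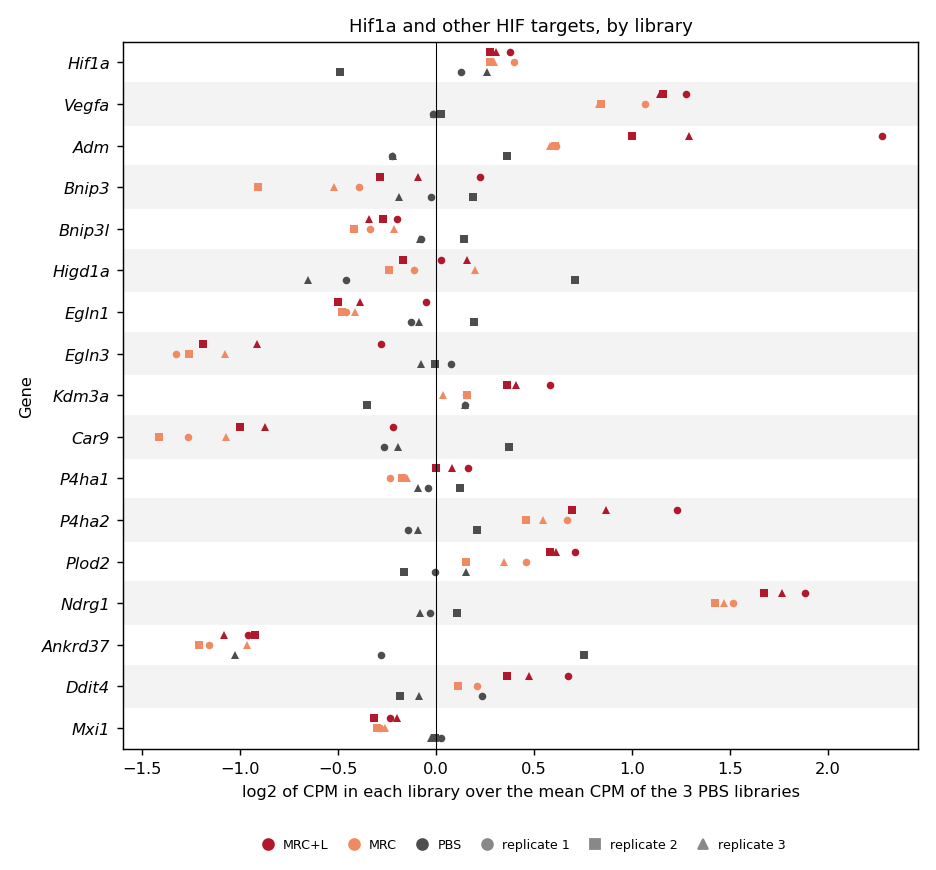
Level of Hif1a and each other HIF target in each of 9 libraries, as log2 of CPM over the mean CPM of the 3 PBS libraries (x axis), with colours for groups and shapes for replicate numbers. MRC points of Ndrg1 and Vegfa lie right of PBS and those of Egln3 and Car9 left of it, and for Adm and Egln3 MRC+L replicate 1 lies apart from the other MRC+L libraries.

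The falls included the feedback hydroxylases that mark HIF-1alpha. Egln3, the prolyl hydroxylase PHD3 (ENSMUSG00000035105, GRCm39 chr12:54225767-54250646), had 83.9, 88.1 and 99.9 CPM in MRC and 222, 209.8 and 199.7 CPM in PBS and was 2.32-fold lower (log2 fold change -1.22 ± 0.20, adjusted p = 0.00114). Egln1, the main oxygen-sensing hydroxylase PHD2, had 81.6, 80.4 and 84.3 CPM in MRC and 103, 128 and 105 CPM in PBS (log2 fold change -0.45 ± 0.14, adjusted p = 0.0262). Car9, the cell-surface carbonic anhydrase, had 3.29, 2.97 and 3.77 CPM in MRC and 6.58, 10.2 and 6.91 CPM in PBS and was 2.36-fold lower (log2 fold change -1.24 ± 0.26, adjusted p = 0.00452). Egln3 and Car9 were called with any 1 library left out, whereas Egln1 was not called without MRC replicate 1, 2 or 3 (highest adjusted p 0.0842).

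The mitophagy receptors Bnip3 and Bnip3l fell. Bnip3 had 101, 70.4 and 92.1 CPM in MRC and 129.9, 151 and 116 CPM in PBS (log2 fold change -0.59 ± 0.17, adjusted p = 0.0224), and Bnip3l had 199, 189 and 217 CPM in MRC and 239, 278 and 238 CPM in PBS (log2 fold change -0.32 ± 0.11, adjusted p = 0.0397). Mxi1, a MAX partner that opposes MYC, had 51.7, 51.1 and 52.5 CPM in MRC and 64.2, 62.7 and 62.0 CPM in PBS (log2 fold change -0.28 ± 0.087, adjusted p = 0.0274). Ankrd37, an ankyrin repeat protein gene, had 3.86, 3.73 and 4.41 CPM in MRC and 7.10, 14.5 and 4.23 CPM in PBS (log2 fold change -1.10 ± 0.37, adjusted p = 0.0384), and its groups overlapped because PBS replicate 3 was as low as the MRC libraries. With no filter on low counts Bnip3l and Mxi1 were not called (adjusted p = 0.192 and 0.308). The call of Bnip3 needed each of PBS replicate 1, MRC replicate 2 and MRC replicate 3 (highest adjusted p 0.0875). Bnip3l and Mxi1 were not called without PBS replicate 1 or any 1 of the 6 exposed libraries (highest adjusted p 0.138 and 0.0869), and Ankrd37 was not called without any 1 library other than PBS replicate 3 (highest adjusted p 0.114; log2 fold change -0.51 without PBS replicate 2). The number of HIF genes called lower was therefore 3 without PBS replicate 1 or MRC replicate 1, 2 without MRC replicate 2 or MRC replicate 3, and 4 without any 1 MRC+L library.

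The other 7 HIF genes were not called in the particle step. Hif1a, the alpha subunit itself, had 242, 222 and 226 CPM in MRC and 200.3, 131 and 219.8 CPM in PBS, with the MRC libraries above the PBS libraries and PBS replicate 2 the lowest (log2 fold change 0.33 ± 0.17, adjusted p = 0.154). Plod2, a collagen lysyl hydroxylase, had 151, 122 and 139.6 CPM in MRC and 109, 97.8 and 122 CPM in PBS (log2 fold change 0.33 ± 0.12, adjusted p = 0.0527), and Adm, the vasodilator adrenomedullin, had 5.32, 5.30 and 5.21 CPM in MRC and 2.98, 4.47 and 2.99 CPM in PBS (log2 fold change 0.60 ± 0.33, adjusted p = 0.176). Higd1a, a mitochondrial inner membrane protein, had 19.9, 18.2 and 24.6 CPM in MRC and 15.6, 35.2 and 13.7 CPM in PBS (log2 fold change -0.04 ± 0.31, adjusted p = 0.937), with PBS replicate 2 far above the other libraries. Kdm3a, Ddit4 and P4ha1 had log2 fold changes of 0.12 ± 0.14, 0.14 ± 0.13 and -0.18 ± 0.099 (adjusted p = 0.544, 0.413 and 0.17). Without PBS replicate 2, Higd1a (0.51, adjusted p = 0.00541), Adm (0.81, adjusted p = 0.0324) and Plod2 (0.24, adjusted p = 0.0376) were called higher, so that 6 HIF genes were higher and 6 lower, where 24.7% of all genes were higher and 26% lower. Plod2 was also called higher by DESeq2 (adjusted p = 0.0272), by voom and with the length trend removed, Adm by voom and with the length trend removed, and Hif1a and Higd1a by voom, which called P4ha1 lower. Hif1a was called higher without PBS replicate 3 (0.47, adjusted p = 0.035), as was Plod2 (0.41, adjusted p = 0.0199), and without PBS replicate 3 or MRC replicate 2 the number called higher was 5 or 4. For these 2 omissions the share of all genes called is not given here, so the numbers only show how calls depend on 1 library.

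The light step asks what irradiation added in cells that held particles, and it was fitted to the 6 libraries of MRC+L and MRC. Of the 38 members 13 were called higher in MRC+L than in MRC and none lower, where 3.13% of 12955 genes were called higher and 1.91% lower. The 13 were 10 of the 17 HIF genes, the transporter Slc2a1, the kinase Pdk1, and 1 enzyme, Eno2. The median log2 fold change was 0.31 over the HIF genes, 0.08 over the enzymes and -0.01 over all genes. MRC+L replicate 1 was the highest MRC+L library for 30 of the 38 members (78.9%), compared with 34.1% of all genes. Without it 4 members were called higher (Eno2, Bnip3, Kdm3a and Ndrg1) and 1, Pfkm, lower, where 1.72% of all genes were called higher and 1.17% lower. With all 9 libraries in the fit, where the wider spread of PBS enters, no gene of 13439 was called in this step (adjusted p = 0.988 for each of the 13 members); 573 genes and 13 members had an unadjusted p under 0.05. Its 6-library fit was chosen with that difference in spread known.

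**Figure D3:**
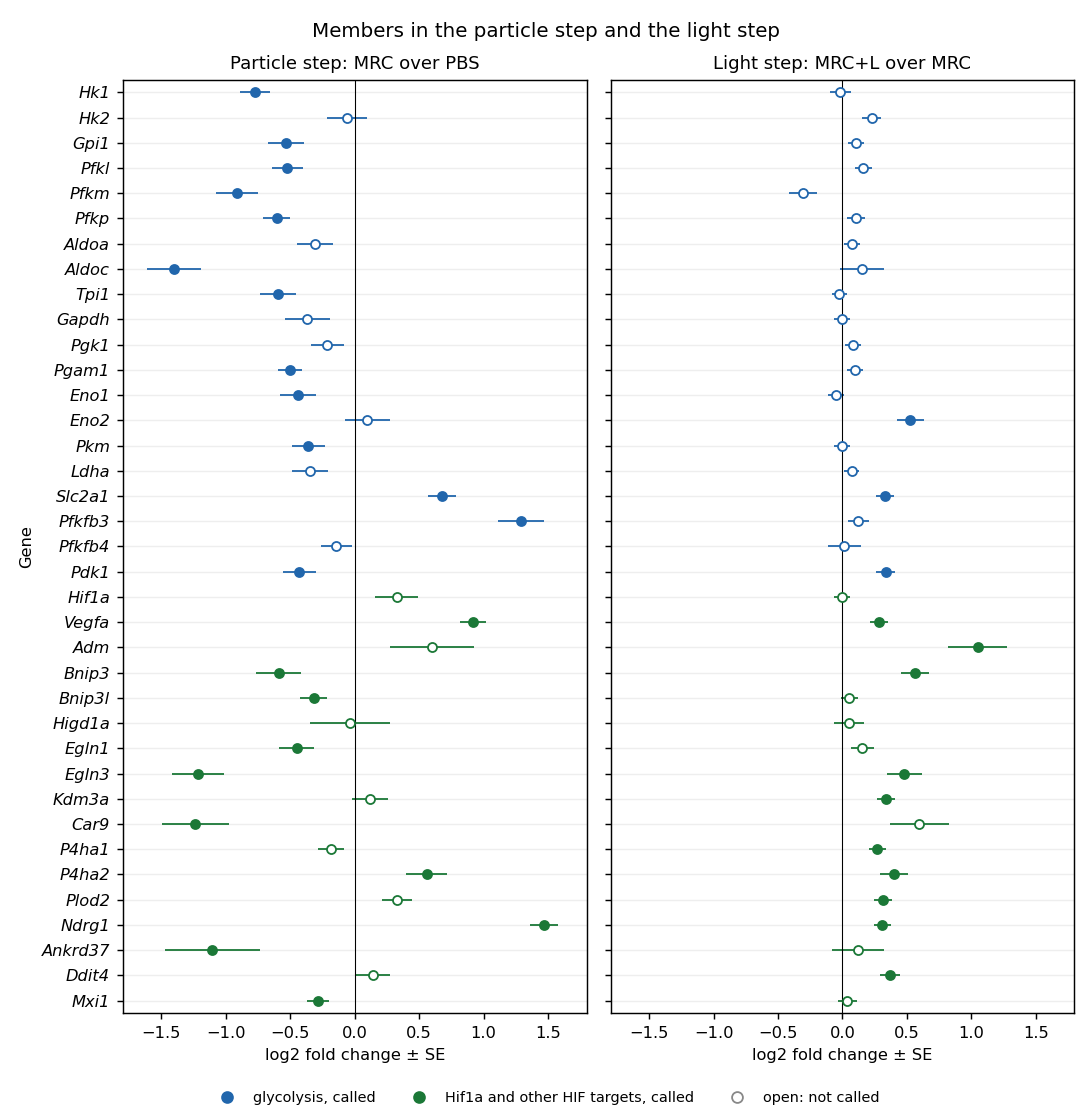
Log2 fold change ± SE of 37 members (x axes) in the particle step (left, MRC over PBS) and the light step (right, MRC+L over MRC), with filled points for called genes, blue for glycolysis and green for Hif1a and other HIF targets. Points lie on both sides of 0 in the particle step, and the 13 filled points of the light step lie right of 0; the MRC libraries enter both panels, and Slc16a3 is left out.

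Eno2 was the glycolytic enzyme called higher after light. Its level (ENSMUSG00000004267, GRCm39 chr6:124737016-124746636) was 96.7, 63.9 and 70.5 CPM in MRC+L and 53.7, 54.8 and 52.8 CPM in MRC. All 3 MRC+L libraries exceeded all 3 MRC libraries, and Eno2 rose 1.44-fold (log2 fold change 0.53 ± 0.10, adjusted p = 0.00495). Leaving out MRC+L replicate 1 kept the call at a smaller change (0.33, adjusted p = 0.0315). Hk2 had 200.2, 163 and 176 CPM in MRC+L and 155, 161 and 147 CPM in MRC, without overlap and without a call (log2 fold change 0.23 ± 0.072, adjusted p = 0.0695), and was called higher without MRC replicate 2 (adjusted p = 0.0393), by DESeq2 (adjusted p = 0.0495) and with no filter on low counts (adjusted p = 0.0461). Pfkm had 23.5, 17.1 and 20.5 CPM in MRC+L and 24.4, 25.5 and 26.0 CPM in MRC, again without overlap or a call (log2 fold change -0.31 ± 0.11, adjusted p = 0.102), and was called lower without MRC+L replicate 1 (-0.42, adjusted p = 0.0455). The remaining 13 enzymes were not called in any omission of 1 library, and their log2 fold changes lay between -0.05 (Eno1) and 0.16 (Pfkl).

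Slc2a1 and Pdk1, genes of glucose uptake and pyruvate control, rose with light. Slc2a1 had 393, 320.3 and 329 CPM in MRC+L and 277, 279 and 277 CPM in MRC and rose 1.26-fold (log2 fold change 0.33 ± 0.070, adjusted p = 0.00937). Pdk1 had 146, 121 and 127 CPM in MRC+L and 103, 98.0 and 112 CPM in MRC and rose 1.26-fold (log2 fold change 0.33 ± 0.074, adjusted p = 0.0112). For both genes the 2 groups did not overlap, and MRC+L replicate 1 was the highest library. Without that library Slc2a1 stood at 0.23 (adjusted p = 0.0746) and Pdk1 at 0.25 (adjusted p = 0.0787), neither of them called. Pfkfb3 had 47.0, 42.7 and 46.4 CPM in MRC+L and 44.6, 41.3 and 39.6 CPM in MRC (log2 fold change 0.12 ± 0.080, adjusted p = 0.399). Pfkfb4 was level (0.01 ± 0.13, adjusted p = 0.963), and Slc16a3 had 15, 17 and 0 counts in MRC+L and 3, 5 and 15 counts in MRC.

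The secreted factors Adm and Vegfa and the stress genes Ndrg1 and Ddit4 rose with light. Adm had 16.9, 6.96 and 8.52 CPM in MRC+L and 5.32, 5.30 and 5.21 CPM in MRC, a 2.07-fold rise (log2 fold change 1.05 ± 0.23, adjusted p = 0.011) in which MRC+L replicate 1 stood well above the other MRC+L libraries. Vegfa (ENSMUSG00000023951, GRCm39 chr17:46327919-46343295) had 199.8, 184 and 182 CPM in MRC+L and 173, 148 and 147 CPM in MRC and rose 1.21-fold (log2 fold change 0.28 ± 0.070, adjusted p = 0.0227). Ndrg1 had 2755, 2386 and 2541 CPM in MRC+L and 2141, 2009 and 2069 CPM in MRC and rose 1.24-fold (log2 fold change 0.31 ± 0.066, adjusted p = 0.0085). Ddit4, which encodes an inhibitor of the growth kinase complex mTORC1, had 99.7, 80.4 and 86.9 CPM in MRC+L, 72.3, 67.7 and 67.6 CPM in MRC and 73.8, 55.0 and 58.9 CPM in PBS, and rose 1.29-fold in MRC+L over MRC (log2 fold change 0.37 ± 0.077, adjusted p = 0.00756). In these 4 genes the groups did not overlap, which describes the same values that gave the calls. Without MRC+L replicate 1 Ndrg1 stayed called (0.25, adjusted p = 0.0493), and Adm (0.56, adjusted p = 0.105), Vegfa (0.24, adjusted p = 0.1) and Ddit4 (0.28, adjusted p = 0.0608) were not. Vegfa was not called without MRC replicate 3 or MRC+L replicate 2 either (highest adjusted p 0.117).

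**Figure D4:**
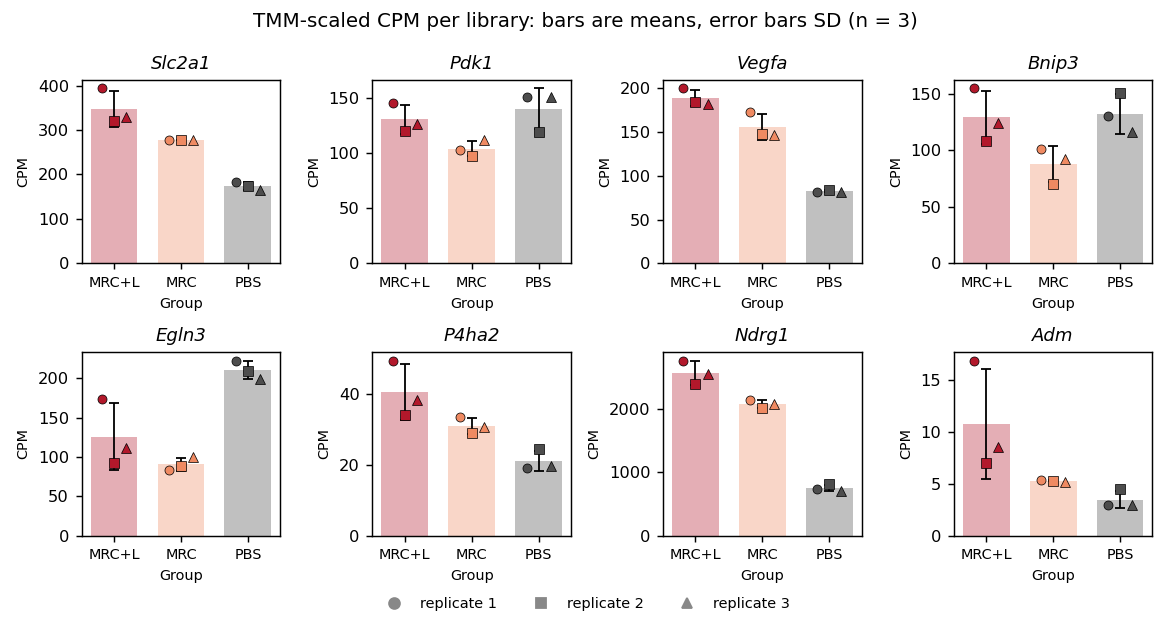
CPM in each library (y axis) of 8 members, with bars for the mean of 3 libraries, error bars for the SD, and shapes for replicate numbers. Slc2a1, Vegfa, P4ha2, Ndrg1 and Adm have their lowest mean in PBS and their highest in MRC+L, whereas Pdk1, Bnip3 and Egln3 have their lowest mean in MRC.

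The mitophagy receptor Bnip3 rose and its relative Bnip3l was not called. Bnip3 (ENSMUSG00000078566, GRCm39 chr7:138492565-138511248) had 155, 109 and 124 CPM in MRC+L and 101, 70.4 and 92.1 CPM in MRC. Every MRC+L library was above every MRC library, and the rise was 1.48-fold (log2 fold change 0.56 ± 0.11, adjusted p = 0.00395); without MRC+L replicate 1 it was called at 0.41 (adjusted p = 0.0229). Bnip3l had 219, 209 and 198 CPM in MRC+L and 199, 189 and 217 CPM in MRC, with overlapping groups (log2 fold change 0.05 ± 0.067, adjusted p = 0.696). DESeq2 did not call Bnip3 (adjusted p = 0.0757), Adm (0.0897) or Egln3 (0.328) in this step, and voom did not call Egln3 (0.0948) or P4ha2 (0.0554).

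Enzymes that hydroxylate or demethylate proteins made up the rest of the light-step calls. Kdm3a, a histone demethylase that needs oxygen, had 177, 152 and 157 CPM in MRC+L, 132, 132 and 121 CPM in MRC and 131, 92.6 and 131 CPM in PBS, and rose 1.27-fold in MRC+L over MRC (log2 fold change 0.34 ± 0.069, adjusted p = 0.00615), also without MRC+L replicate 1 (0.27, adjusted p = 0.0451). P4ha1, another catalytic subunit of the collagen prolyl hydroxylase, had 211, 189 and 199.7 CPM in MRC+L, 160.4, 167 and 170.2 CPM in MRC and 183, 205 and 177 CPM in PBS (MRC+L over MRC, log2 fold change 0.27 ± 0.064, adjusted p = 0.0164). P4ha2 had 49.3, 34.1 and 38.3 CPM in MRC+L and 33.4, 28.9 and 30.7 CPM in MRC (log2 fold change 0.40 ± 0.11, adjusted p = 0.0335), and Plod2 had 179.6, 164 and 168 CPM in MRC+L and 151, 122 and 139.6 CPM in MRC (log2 fold change 0.31 ± 0.072, adjusted p = 0.0141). All of these had MRC+L libraries above the MRC libraries without overlap, again in the values that gave the calls. Without MRC+L replicate 1 P4ha1 (0.23, adjusted p = 0.0838), P4ha2 (0.23, adjusted p = 0.224) and Plod2 (0.28, adjusted p = 0.0632) were not called. The call of P4ha1 also went without either other MRC+L library, that of P4ha2 without MRC replicate 2 or 3, and that of Plod2 without MRC+L replicate 2.

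Egln3 had 174, 92.3 and 112 CPM in MRC+L and 83.9, 88.1 and 99.9 CPM in MRC (log2 fold change 0.48 ± 0.13, adjusted p = 0.0403). MRC+L replicate 1 was far above the other libraries, and MRC+L replicate 2 lay below MRC replicate 3. The call was lost without MRC+L replicate 1 (0.18, adjusted p = 0.303) and without any 1 MRC library. Egln1 had 108, 79.2 and 85.6 CPM in MRC+L and 81.6, 80.4 and 84.3 CPM in MRC (log2 fold change 0.15 ± 0.087, adjusted p = 0.316). Car9 had 6.81, 3.95 and 4.32 CPM in MRC+L and 3.29, 2.97 and 3.77 CPM in MRC, without overlap or a call (log2 fold change 0.60 ± 0.23, adjusted p = 0.13). Hif1a had 239, 222 and 227 CPM in MRC+L and 242, 222 and 226 CPM in MRC, a log2 fold change of 0.00 ± 0.062 (adjusted p = 1). Higd1a, Ankrd37 and Mxi1 were not called in any omission of 1 library, with log2 fold changes of 0.05 ± 0.12, 0.12 ± 0.20 and 0.04 ± 0.073.

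MRC+L cells differed from PBS cells by both steps together, and this comparison shares its PBS libraries with the particle step and its MRC+L libraries with the light step. Of the 16 enzymes 10 were called lower and 1, Eno2, higher, where 24.5% of all genes were called lower and 21.8% higher. Of the other members, Slc2a1, Pfkfb3 and 7 HIF genes were higher and 3 HIF genes (Egln3, Ankrd37 and Mxi1) were lower. Slc2a1 was 2.01-fold higher (1.00 ± 0.11), Vegfa 2.29-fold (1.19 ± 0.10), Adm 3.11-fold (1.64 ± 0.32), Ndrg1 3.42-fold (1.78 ± 0.11) and P4ha2 1.93-fold (0.95 ± 0.16). Plod2 (0.64 ± 0.12), Ddit4 (0.51 ± 0.13) and Kdm3a (0.45 ± 0.14) were the other HIF genes called higher.

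Several members had a fold change of one sign in the particle step and of the other in the light step. Bnip3 had 155, 109 and 124 CPM in MRC+L, 101, 70.4 and 92.1 CPM in MRC and 129.9, 151 and 116 CPM in PBS, and MRC+L against PBS gave -0.03 ± 0.17 (adjusted p = 0.889). Pdk1 had 146, 121 and 127 CPM in MRC+L, 103, 98.0 and 112 CPM in MRC and 151, 119 and 151 CPM in PBS, for which MRC+L against PBS gave -0.10 ± 0.13 (adjusted p = 0.538). Egln3 stayed lower than in PBS (-0.74 ± 0.20, adjusted p = 0.0128), except without MRC+L replicate 3 (adjusted p = 0.0566). Both steps use the MRC libraries, so opposite signs across them carry no separate weight. Hk1 (-0.79 ± 0.12), Pfkm (-1.23 ± 0.17) and Aldoc (-1.26 ± 0.21) were lower in MRC+L than in PBS with any 1 library left out. Eno2 (0.62 ± 0.18, adjusted p = 0.0168) was not called without PBS replicate 1 or MRC+L replicate 1 (highest adjusted p 0.0717). Among the enzymes called lower here, Gpi1 was not called without PBS replicate 1 or any 1 MRC+L library (highest adjusted p 0.108), Pfkl without PBS replicate 1, any 1 MRC library or MRC+L replicate 2 or 3 (0.126), Eno1 without MRC+L replicate 2 or 3 (0.0707), and Pkm without PBS replicate 1 or any 1 exposed library (0.132). With the length trend removed Pgam1 stood at -0.19 in place of -0.41 and was not called (adjusted p = 0.138), and with no filter on low counts Pfkl was not called (adjusted p = 0.0649). Without MRC+L replicate 2 or 3, 6 enzymes were lower. Of the HIF genes, Kdm3a was not called without MRC+L replicate 1 or 3 (highest adjusted p 0.0933), Mxi1 without PBS replicate 1 or any 1 exposed library (0.152), and Ankrd37 without any 1 library other than PBS replicate 3 (0.151). The number of HIF genes lower than in PBS was 0 without MRC+L replicate 3, 5 without PBS replicate 3, and 1 when PBS replicate 1, MRC+L replicate 2 or any 1 MRC library was left out.

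On a scale that divides by exon length (TPM), Aldoa lay above Aldoc and Pfkl above the other phosphofructokinase subunits in every group. Pkm had a level of 2055 ± 111 TPM in MRC+L, 2004 ± 95.4 TPM in MRC and 2422 ± 47.9 TPM in PBS (SD, n = 3). Aldoa stood at 2188 ± 143, 2015 ± 80.4 and 2340.2 ± 138 TPM in those groups, and Aldoc at 9.42 ± 2.22, 8.26 ± 0.717 and 20.5 ± 2.15 TPM. Among phosphofructokinase subunits Pfkl led, with 196 ± 17.8 TPM in MRC+L, 169.8 ± 5.43 TPM in MRC and 230.0 ± 8.65 TPM in PBS, over Pfkp (77.1 ± 7.95, 69.6 ± 5.05 and 102 ± 19.96 TPM) and Pfkm (22.9 ± 3.87, 27.5 ± 1.24 and 48.7 ± 3.61 TPM). Of the hexokinases Hk2 had 113 ± 13.5 TPM in MRC+L, 93.98 ± 6.54 TPM in MRC and 95.5 ± 32.4 TPM in PBS, and Hk1 had 55.9 ± 7.76, 54.9 ± 6.14 and 89.7 ± 15.4 TPM, so that Hk2 lay above Hk1 in MRC+L and MRC and within its SD of Hk1 in PBS. Ndrg1, at 1458 ± 124 TPM in MRC+L, 1142 ± 21.3 TPM in MRC and 392 ± 32.9 TPM in PBS, was the HIF gene with the highest level in each group.

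Taken as a share of all counts, the 16 enzymes held 1.36%, 1.23% and 1.31% in MRC+L, 1.25%, 1.29% and 1.29% in MRC, and 1.63%, 1.92% and 1.42% in PBS. Each exposed library lay below each PBS library, and PBS replicate 2 was the highest. The 17 HIF genes held 0.469%, 0.396% and 0.418% in MRC+L, 0.361%, 0.344% and 0.358% in MRC, and 0.234%, 0.231% and 0.231% in PBS. Ndrg1 made up all of the excess of MRC over PBS and most of that of MRC+L over PBS. Without Ndrg1 the HIF share was 0.192%, 0.159% and 0.166% in MRC+L, 0.150%, 0.141% and 0.149% in MRC, and 0.160%, 0.153% and 0.159% in PBS. Each MRC library then lay below each PBS library, and MRC+L replicate 2 lay within the PBS range.

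Further genes of the same pathways, listed apart from the members, were measured as well. Of 22 tested further genes of glycolysis and pyruvate handling, 4 rose and 6 fell in the particle step, where 17.8% of all genes rose and 19.8% fell, and none was called in the light step by edgeR, where 5 had an unadjusted p under 0.05 and DESeq2 called none either. Tigar, a phosphatase that lowers fructose bisphosphate, had 23.4, 28.6 and 24.0 CPM in MRC and 8.67, 8.06 and 8.96 CPM in PBS and rose 2.96-fold (log2 fold change 1.56 ± 0.14, adjusted p = 2.92e-05). Adpgk, an ADP-dependent glucokinase, had 110.2, 102 and 112 CPM in MRC and 67.0, 61.0 and 65.0 CPM in PBS (log2 fold change 0.75 ± 0.099, adjusted p = 0.0003), and the lactate transporter Slc16a1 had 390.4, 341 and 377 CPM in MRC and 314, 281 and 309.6 CPM in PBS (log2 fold change 0.29 ± 0.10, adjusted p = 0.0412). Hkdc1, a hexokinase relative, had 16, 11 and 9 counts in MRC and 0, 0 and 1 counts in PBS, a ratio of 35.5 with an exact 95% counting interval of 5.98 to 1441. The 4 largest falls were those of Ldhb, Eno3, Slc2a8 and Pdk2. Ldhb, the lactate dehydrogenase chain that favours pyruvate, had 2.09, 2.50 and 2.68 CPM in MRC and 5.54, 7.53 and 3.73 CPM in PBS (log2 fold change -1.20 ± 0.31, adjusted p = 0.0132). Eno3, the muscle enolase, had 50.2, 51.5 and 50.6 CPM in MRC and 101, 146 and 88.3 CPM in PBS (log2 fold change -1.14 ± 0.16, adjusted p = 0.0005). The glucose transporter Slc2a8 had a log2 fold change of -1.08 ± 0.22 and Pdk2, a relative of Pdk1, one of -0.89 ± 0.19.

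Of the machinery of HIF itself 2 of 11 tested genes were higher and none lower in the particle step, where 17.8% of all genes were higher and 19.8% lower. Cited2, which competes with HIF-1alpha for its coactivators, had 83.8, 77.7 and 79.4 CPM in MRC and 48.0, 43.4 and 48.9 CPM in PBS (log2 fold change 0.78 ± 0.092, adjusted p = 0.000153). Hif1an, the asparaginyl hydroxylase that blocks HIF activity, had 52.1, 48.7 and 45.2 CPM in MRC and 35.2, 25.5 and 41.6 CPM in PBS (log2 fold change 0.51 ± 0.16, adjusted p = 0.0308). In the light step 2 were higher and none lower, where 3.13% of all genes were higher and 1.91% lower. They were the coactivators Crebbp, with 135, 150.0 and 137 CPM in MRC+L and 110.4, 115 and 91.4 CPM in MRC (log2 fold change 0.41 ± 0.078, adjusted p = 0.00355), and Ep300, with 201, 210.4 and 184 CPM in MRC+L and 157, 187 and 138 CPM in MRC (log2 fold change 0.31 ± 0.084, adjusted p = 0.0353). The particle-step count was 1 without PBS replicate 1 or any 1 MRC library, 3 without PBS replicate 2, and 4 with 2 lower without PBS replicate 3. Of all genes 24.7% were higher and 26% lower without PBS replicate 2, and the shares for the other omissions are not given here. The light-step count was 1 without MRC replicate 1 (with 1 lower), MRC replicate 3 or MRC+L replicate 1, and 0 without MRC+L replicate 2.

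Of 25 tested further HIF targets 7 rose and 7 fell in the particle step, beside 17.8% and 19.8% of all genes. Bhlhe41, a circadian repressor, had 19.9, 15.8 and 16.2 CPM in MRC and 4.44, 6.94 and 5.17 CPM in PBS and rose 3.14-fold (log2 fold change 1.65 ± 0.18, adjusted p = 8.9e-05). Stc2 (0.77 ± 0.14) and Lonp1 (0.58 ± 0.11), a mitochondrial protease, also rose. Plod1, the sister enzyme of Plod2, had 58.4, 64.2 and 68.0 CPM in MRC and 163, 161 and 161 CPM in PBS and was 2.54-fold lower (log2 fold change -1.35 ± 0.17, adjusted p = 0.000212). Selenbp1 (-1.76 ± 0.52), Loxl2 (-1.34 ± 0.43) and Pgf (-1.05 ± 0.18), a relative of Vegfa, were the other large falls, of which Selenbp1 and Loxl2 had under 10 CPM in every library. In the light step 4 of 24 rose and none fell, beside 3.13% and 1.91% of all genes. Ero1l, the oxidase that forms disulfides in the endoplasmic reticulum, had 963, 654 and 734 CPM in MRC+L and 562, 487 and 544 CPM in MRC and rose 1.48-fold (log2 fold change 0.57 ± 0.095, adjusted p = 0.00138). Ak4 (0.29 ± 0.081), Wsb1 (0.25 ± 0.064) and Car12 (0.24 ± 0.067) had smaller rises. The count of rises was 2 without MRC replicate 1 or 3 and 1 without MRC+L replicate 1 (with 1 lower) or MRC+L replicate 3, and the particle-step count of falls was 3 without MRC replicate 1 or 2 and 4 without MRC replicate 3. Without PBS replicate 3 the particle-step count of rises was 11. The share of all genes called with that library left out is not given here, so this count is no result about these genes.

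Of 8 tested glycogen genes 1 rose and 1 fell in the particle step, beside 17.8% and 19.8% of all genes, and 3 rose with none lower in the light step, beside 3.13% and 1.91%. Gbe1, the glycogen branching enzyme, had 98.6, 97.5 and 101 CPM in MRC+L, 83.5, 79.6 and 85.0 CPM in MRC and 48.0, 45.8 and 49.1 CPM in PBS, and it rose in the particle step (log2 fold change 0.80 ± 0.087, adjusted p = 9.58e-05) and in the light step (log2 fold change 0.26 ± 0.065, adjusted p = 0.0221). Ugp2, which makes the glucose donor of glycogen, had 31.6, 22.0 and 34.4 CPM in MRC and 39.9, 51.8 and 36.0 CPM in PBS (log2 fold change -0.54 ± 0.18, adjusted p = 0.0403). Pgm1, phosphoglucomutase, rose with light by 0.26 ± 0.070 on the log2 scale. The 3 light-step calls became none without MRC+L replicate 1 and 1 without MRC replicate 1, MRC replicate 3 or either other MRC+L library. The Ugp2 fall was the only one called in the particle step, and it was not called when PBS replicate 1, MRC replicate 1 or 2, or MRC+L replicate 2 or 3 was left out, whereas 3 glycogen genes fell without PBS replicate 2 and 2 without PBS replicate 3. Of all genes 26% were lower without PBS replicate 2, and the share without PBS replicate 3 is not given here.

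Between MRC+L and PBS the further glycolysis genes gave 4 of 22 higher and 8 lower, the HIF machinery 3 of 11 higher and none lower, the glycogen genes 1 of 8 in each direction, and the further HIF targets 10 of 25 higher and 4 lower, where 21.8% of all genes were higher and 24.5% lower. Tigar was higher by 1.70 ± 0.14 on the log2 scale, Adpgk by 0.84 ± 0.099 and Slc16a1 by 0.34 ± 0.10, and Hkdc1 had 13, 13 and 20 counts in MRC+L and 0, 0 and 1 counts in PBS. Slc2a8 (-1.63 ± 0.22), Ldhb (-1.58 ± 0.32), Eno3 (-1.33 ± 0.17) and Pdk2 (-1.09 ± 0.19) were lower. Of the HIF machinery Crebbp (0.96 ± 0.25), Cited2 (0.65 ± 0.092) and Hif1an (0.63 ± 0.16) were higher. Gbe1 (1.05 ± 0.087) was higher and Ugp2 (-0.57 ± 0.18) lower. Among the further HIF targets Bhlhe41 (1.78 ± 0.18), Stc2 (0.92 ± 0.14) and Ero1l (0.91 ± 0.17) were higher, and Plod1 (2.01-fold lower), Pgf (-0.79 ± 0.18), Tgfa (-0.76 ± 0.20), a growth factor of the EGF receptor, and Rbpj (-0.53 ± 0.17), the DNA-binding partner of Notch, were the falls.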

How the data were processed

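RNA of 9 libraries was extracted with Trizol and prepared with an Illumina TruSeq kit, per the labels' protocols. The deposited values are raw read counts per gene, made by the authors with featureCounts 2.0.1 on paired reads over Ensembl 104 exons of GRCm39, per the file headers. Strand was not used and reads with several places were not counted, so overlapping or near-identical genes are uncertain, and the aligner is not given in the sources used here. Symbols were matched by gene ID from GENCODE annotation of GRCm38 for 52083 of 55416 IDs (94%), and promoters came from RefSeq (GRCm38.p6).

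Counts were filtered with filterByExpr (minimum count 10, minimum total 15), scaled by TMM and tested with the quasi-likelihood test of edgeR 4.0.16 in R 4.3.3, with 1 mean per group and Benjamini-Hochberg adjustment over all genes tested. Comparisons with PBS used all 9 libraries, and MRC+L against MRC used its 6. The scripts were tested on simulated data. Alternatives were DESeq2 1.42.0, other scaling factors, no filter, limma 3.58.1 voom with sample weights, the other set of libraries, a replicate term, removal of a length trend and omission of each library. Counts of members under an alternative or an omission that stand without a share of all genes show only how calls depend on the fit or on 1 library. They are no results about the members. TPM were computed from exon lengths. Prior counts were 0.125 for fold changes and 2 for log CPM. The standard error of a log2 fold change was its absolute value over the square root of the F statistic of the edgeR test. No 2 libraries agreed within sampling noise. The members, the lists and the 6-library fit were chosen with earlier results of these data known. Every member is accounted for, and of each further list up to 4 called genes per direction and comparison, those with the largest changes, are named, except for some that are not reported here.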

Additional observations from a re-analysis of the deposited data

How the results depend on the processing

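The number of HIF members higher in MRC than in PBS was 3, against 7 with voom, 5 with the length trend removed and 2 to 6 with 1 library left out; the number lower was 7, against 4 without the MRC+L libraries, 3 with the replicate block and 2 to 7 with 1 library left out. Their median of -0.04 turned to 0.02 with the block and 0.0084 without the length trend, and lay between -0.23 and 0.05 with 1 library left out. Higd1a, not called (-0.04), was called higher with voom (0.45) and without PBS replicate 2, and lay between -0.28 and 0.51 with 1 library left out. For MRC+L against MRC, 3 glycolysis members and 10 HIF members were higher, against 0 and 0 with all 9 libraries in the fit and 1 to 4 and 3 to 9 with 1 library left out, and 0 to 1 glycolysis members were then lower. For MRC+L against PBS, 10 glycolysis members were lower, against 6 without the MRC libraries and 6 to 13 with 1 library left out; 3 HIF members were lower, against 5 with DESeq2, 6 with voom, 1 without the MRC libraries, 1 with the replicate block and 0 to 5 with 1 library left out. Deviations of same-numbered libraries had correlations of -0.185 to 0.0385, which gave no sign that the numbers paired the samples. With 3 libraries per group these correlations cannot settle whether they did, so calls lost with the block remain uncertain. Over all genes voom called 4433 higher and 4418 lower for MRC against PBS, where edgeR called 2394 and 2656, and 4866 and 4990 for MRC+L against PBS, where edgeR called 2926 and 3286; removing the length trend left 262 higher and 190 lower for MRC+L against MRC, where 406 and 248 were called. Without MRC+L replicate 2 those were 90 and 47, without MRC+L replicate 3 217 and 80, without MRC replicate 3 129 and 64, and without MRC replicate 2 623 and 392. Member counts under settings whose count over all genes is not given show only how calls depend on the fit, and are no results about the members. RLE, upper-quartile and DESeq2 scaling moved the median of all genes by under 0.1. The called members gave 328 of 391 values still called in the same direction for MRC against PBS, 145 of 182 for MRC+L against MRC and 334 of 391 for MRC+L against PBS, and none turned sign. DESeq2 gave no adjusted p for Ankrd37, Car9 and Slc16a3 in MRC+L against MRC. Depth limits Slc16a3, Car9, Ankrd37 and Adm most.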
